A study of Mus musculus and Rattus norvegicus with 2 samples.

Results

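Short fragments from the 5′ end of cytosolic tRNA-Ala were described in mouse and rat sperm taken from the cauda epididymis, the last stretch of the epididymal duct and the store of mature sperm. Members were the listed reads whose first 18 nt matched either of 2 tRNA-Ala 5′ ends, 1 base apart, with at most 1 mismatch, whatever label the read had been given. Other tRNA-Ala 5′ ends, if more distant in sequence, are not covered. They numbered 2646 reads in 135 distinct sequences of 691381 listed reads in the mouse, and 61116 reads in 453 sequences of 2102735 listed reads in the rat. C57BL/6 mice were 2 months old, and the Sprague Dawley rats were young adults of 450 g. Both are labelled purified cauda epididymal sperm, with RNA of 18 to 45 nt sequenced, and neither label names a treatment or a genetic change. Not given in the sources used here is how many animals went into each library.

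There was 1 library per species, so differences between species have no replicate check and no p-value is given. Species, strain, age and library run cannot be told apart. Intervals below are exact 95% intervals, Poisson for counts and Clopper-Pearson for shares. They cover counting error only, since copies made in PCR are not independent molecules. The members were selected on measured reads, and the family was chosen by its abundance in the rat and its modal length of 23 nt, so these values are a description. The cell label was checked on mouse reads of at least 22 nt that match marker mRNAs exactly. All 8 sperm genes had reads, 337 in all, with 113 for Prm2, which encodes a protamine that packs sperm DNA, and 17 for Prm1. The lowest were Tnp1 and Akap4 with 1 read each and Spata18 with 9. Of 8 genes of the epididymal epithelium 7 had reads, 82 in all, with 29 each for Crisp1 and Adam7, and 2 of 5 blood genes had 8 reads, with Ptprc at 0. The part of other cells' RNA in the tRNA-Ala reads was not tested, and no rat transcripts were used here.

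Transfer RNAs carry amino acids to the ribosome and fold into a cloverleaf. Counted from the 5′ end, the acceptor stem is followed by the D arm, a stem closed by the D loop, which is named for the modified base dihydrouridine, and then by the anticodon arm. Many tRNA fragments in mature sperm are longer 5′ pieces cut at the anticodon loop, while shorter 5′ fragments end in or near the D arm.

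One tRNA-Ala 5′ end came from the RefSeq mouse gene n-TAagc16 and the other, the main form, was the most abundant rat start 1 mismatch away from it. The main form is thus taken as tRNA-Ala by its likeness to this gene, and its anticodon was not read. An end of tRNA-Cys, G7A, is also 1 mismatch from the gene. The gene lies at chr13:21222586-21222657 on the plus strand of GRCm38.p6. It is a 72-nt tRNA gene with the anticodon AGC at bases 33 to 35. It lies 47 nt outside the higher-coordinate boundary of the lncRNA gene Gm32420, between annotated genes. In its D arm, bases 10 to 13 pair with bases 21 to 24, and the loop is bases 14 to 20. RefSeq lists 33 cytosolic mouse tRNA-Ala genes, 13 with the anticodon AGC, 9 with CGC and 11 with TGC.

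The sequences below are shown because the results turn on where they end and on single bases in or beside the D loop. They are written 5′ to 3′ as DNA, with the D loop (or the part of it that is present) in capitals. All are deposited reads except the gene, which is from RefSeq. Forms are named by their difference from the main form, with positions counted from 1 at the 5′ end of the read.
gene n-TAagc16: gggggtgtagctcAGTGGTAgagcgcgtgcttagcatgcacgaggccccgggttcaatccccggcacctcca
main form, 18 nt: ggggatgtagctcAGTGG
main form, 19 nt: ggggatgtagctcAGTGGT
main form, 22 nt: ggggatgtagctcAGTGGTAga
main form, 23 nt: ggggatgtagctcAGTGGTAgag
main form, 24 nt: ggggatgtagctcAGTGGTAgagc
T16C form, 23 nt: ggggatgtagctcAGCGGTAgag
T16A form, 23 nt: ggggatgtagctcAGAGGTAgag
G15A form, 23 nt: ggggatgtagctcAATGGTAgag
G15A form, 25 nt: ggggatgtagctcAATGGTAgagca
A5G form, 19 nt: gggggtgtagctcAGTGGT
A5G form, 23 nt: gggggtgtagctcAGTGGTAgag
A5G form, 30 nt: gggggtgtagctcAGTGGTAgagcgcgtgc
main form with base 19 deleted, 22 nt: ggggatgtagctcAGTGGAgag
main form with C at base 19, 23 nt: ggggatgtagctcAGTGGCAgag
tRNA-Cys read, 32 nt, for comparison: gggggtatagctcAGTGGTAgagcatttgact

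The main form of 23 nt was the most abundant member of both libraries, with 810 mouse reads (755 to 868) and 21121 rat reads (20837 to 21408). It ends 3 bases past the D loop, within the 3′ strand of the D stem. The same form of 22 nt had 228 mouse and 8755 rat reads, and that of 24 nt had 99 and 4969. The main form of 19 nt had 145 and 320. The 18-nt read of the main form, which stops inside the D loop, had 324 mouse and 2683 rat reads. Relative to the 23-nt read it was therefore more frequent in the mouse than in the rat. The second most abundant mouse member was the T16C form of 23 nt with 470 reads, and the rat library held 5 reads of it. The G15A form of 23 nt stood the other way, with 70 mouse and 6323 rat reads.

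Of all listed reads, members made up 0.383% of the mouse set (0.368 to 0.398%) and 2.91% of the rat set (2.88 to 2.93%), a rat share 7.59 times that of the mouse. Members were 0.711% of mouse and 17.8% of rat reads labelled tRNA. For every 100 reads of mature miRNA there were 11.3 mouse and 235.5 rat member reads. The rat was higher under all 3 denominators, by different factors. The tables do not list every identifier: 78279 mouse and 63001 rat identifiers up to the highest one are not listed, and their reads were not analysed here. The shares are therefore of listed reads only.

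Members found in both libraries carried most of the member reads of each. There were 81 distinct members present in both libraries, which is 60% of the mouse and 17.9% of the rat sequences. Their reads came to 95.2% of mouse and 97.0% of rat members. Presence in both does not mean like abundance: the T16C form of 23 nt is among them, with 470 mouse and 5 rat reads. The overlap of all listed sequences was not computed, so this overlap cannot be called particular to the members. Over these 81 sequences the log10 read numbers correlated with r = 0.59 (Pearson) and rho = 0.45 (Spearman), given as a description because the sequences overlap each other. Members seen in 1 read only numbered 74 (mouse) and 178 (rat).

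The fragments were short in both species. The modal length was 23 nt, with 1436 mouse reads (54.3%) and 30252 rat reads (49.5%). Lengths of 20 to 24 nt held 73.7% of mouse reads (71.97 to 75.4%) and 85.6% of rat reads (85.3 to 85.9%). Those of 18 and 19 nt were 544 mouse reads (20.6%, 19.03 to 22.2%) and 3322 rat reads (5.44%, 5.26 to 5.62%). There were 62 mouse (2.34%) and 5356 rat (8.76%) reads of 25 nt. Reads of 28 to 36 nt, the range of 5′ pieces cut near the anticodon, were 82 mouse (3.10%, 2.47 to 3.83%) and 56 rat reads (0.0916%, 0.0692 to 0.119%). The longest mouse member had 34 nt and the longest rat member 32 nt. None of the 2646 mouse and 61116 rat members reached base 35, the last base of the anticodon, so their anticodon could not be read.

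**Figure D1:**
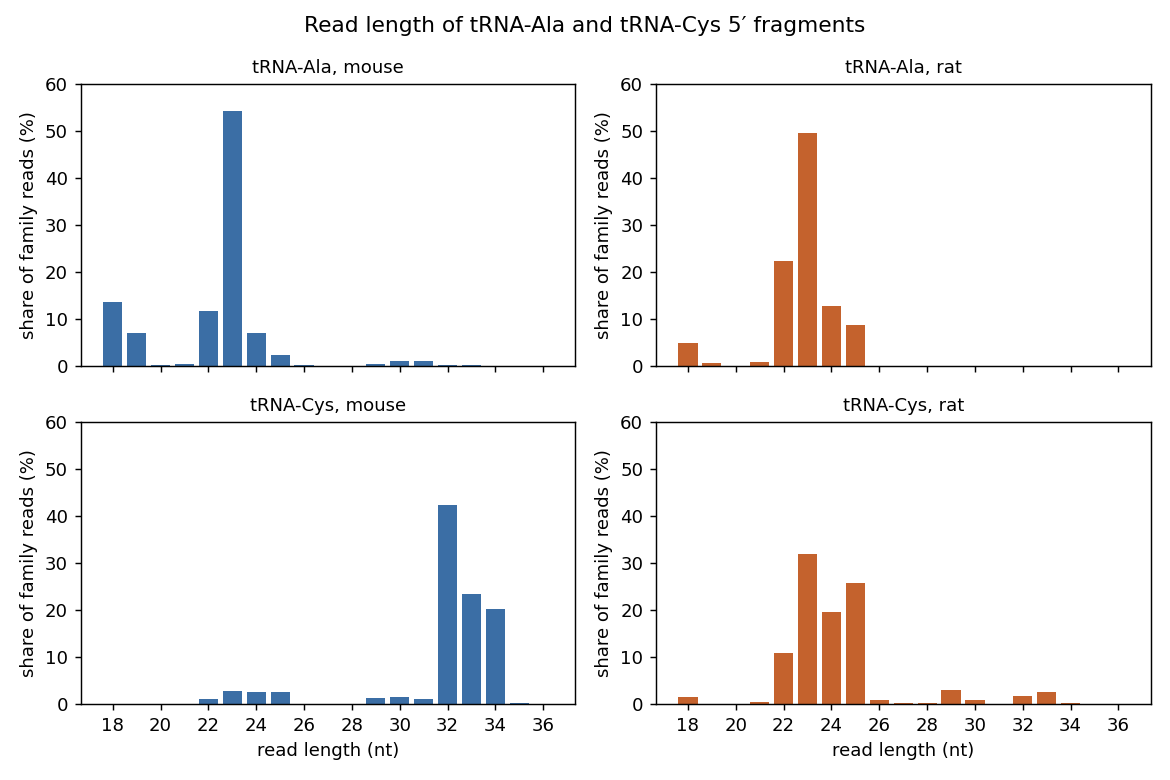
Share of family reads (%) against read length (nt) for tRNA-Ala (top) and tRNA-Cys (bottom) 5′ fragments, with the mouse library on the left and the rat library on the right. tRNA-Ala peaked at 23 nt in both libraries, whereas the mouse tRNA-Cys peak was at 32 nt and the rat one at 23 nt.

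The closest relative by sequence was tRNA-Cys, whose 5′ end differs from that of n-TAagc16 by G7A in its commonest mouse form and by G7A and T16G in its commonest rat form. This rat form had 4995 rat reads. Its placing with tRNA-Cys rests on the anticodon of 1 read of at least 35 nt, both libraries together. In the mouse, 90.3% of the 5929 tRNA-Cys reads had 28 to 36 nt (89.5 to 91.0%), against 3.10% of the tRNA-Ala reads. The 2 families thus had separate length profiles within 1 library. In the rat, 63.1% of the 7326 tRNA-Cys reads had 20 to 24 nt and 8.60% had 28 to 36 nt, so there both families were mostly short. The most abundant mouse tRNA-Cys read, the 32-nt sequence printed above, had 1391 reads, and the rat held 123 of it. The leading tRNA-Gly end, the commonest tRNA-labelled read start of the rat, was long in both species, with 98.8% of 156101 mouse and 99.2% of 131603 rat reads at 28 to 36 nt. Short 5′ ends of tRNA-Ser-AGA/TGA were plentiful in the rat, with 20810 reads, a mode of 24 nt and 69.1% of reads at 20 to 24 nt. The mouse library held 20 reads of that end.

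Fragment ends were then placed on the tRNA, after allowing for a deleted base 19. Most members ended in the 3′ strand of the D stem, bases 21 to 24, with 1945 mouse reads (73.5%) and 52154 rat reads (85.3%). Base 23 alone was the end of 54.5% of mouse and 50.8% of rat reads. Base 22 followed with 11.5% and 21.03%, and base 24 with 7.03% and 12.7%. Ends inside the D loop itself made up 549 mouse reads (20.7%, 19.2 to 22.3%) and 3360 rat reads (5.50%, 5.32 to 5.68%). Nearly all of these ended at base 18 or 19, and since no read under 18 nt was matched, ends in the first 4 bases of the loop could not be seen. For tRNA-Ala, 18 nt held 360 mouse (13.6%) and 2970 rat reads (4.86%), and 19 nt held 184 (6.95%) and 352 (0.576%). In the leading tRNA-Gly end, reads of 18 nt, the shortest sequenced, numbered 1874 (mouse, 1.20%) and 755 (rat, 0.574%). Its reads of 19 nt numbered 1 and 5. The tRNA-Ser-AGA/TGA end had 19 mouse (95% of 20) and 10 rat reads (0.048%) of 18 nt, against 0 and 8 of 19 nt. For tRNA-Cys the numbers were 4 (0.0675%) and 108 (1.47%), against 3 and 5. Whether the 18-nt tRNA-Ala reads mark a cut in the D loop was not tested. Reads ending past base 25 were 3.40% of the mouse and 0.205% of the rat members.

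The first 18 nt took 26 mouse and 72 rat forms. The 5 mouse forms that held at least 1% of members carried 97.9% of its reads, and the 3 such rat forms carried 97.9% as well. The main form was the largest in both, with 1683 mouse reads (63.6%, 61.7 to 65.4%) and 40226 rat reads (65.8%, 65.4 to 66.2%). The A5G form, which is the exact 5′ end of n-TAagc16, had 122 mouse reads (4.61%) and 2362 rat reads (3.86%). Its most abundant read had 19 nt in the mouse, with 27 reads there and 19 in the rat, and 23 nt in the rat, with 1139 reads there and 13 in the mouse. Over all lengths, the main and A5G forms thus took much the same share in both species. Forms with a change in the D loop did not. Without reads of 18 and 19 nt, chosen after seeing the data, the main form held 57.7% of mouse and 64.4% of rat members. G15A had 152 mouse reads (5.74%, 4.89 to 6.70%) and 17222 rat reads (28.2%, 27.8 to 28.5%). T16C had 596 mouse reads (22.5%, 20.9 to 24.2%) and 13 rat reads (0.0213%). T16A had 37 mouse and 3 rat reads.

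**Figure D2:**
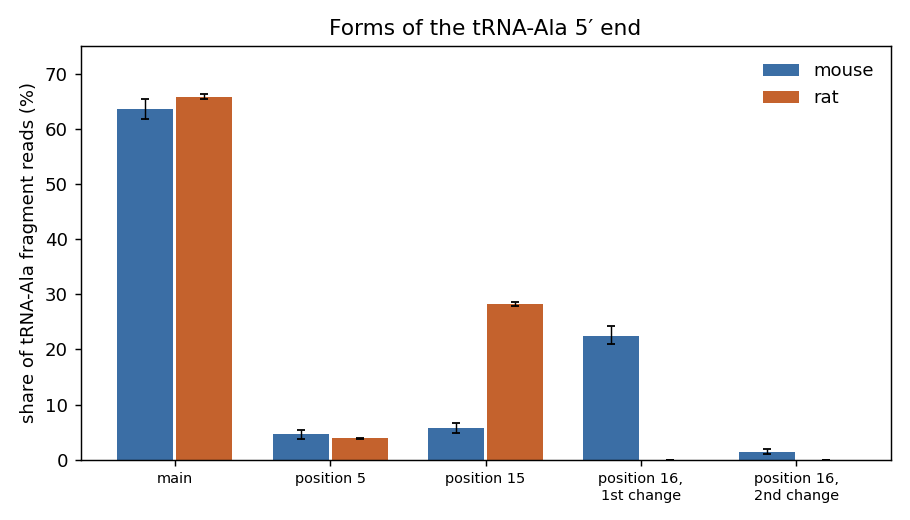
Share of tRNA-Ala fragment reads (%) in the 5 forms that held at least 1% of a library, with bars for the mouse and rat libraries and exact 95% counting intervals. Position 5 is A5G, position 15 is G15A, and the 2 changes at position 16 are T16C and T16A; the main form held 63.6% and 65.8%, while G15A was prominent among rat reads (28.2%) and T16C among mouse reads (22.5%).

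These forms also differed further along the tRNA, which the choice of members did not use. Base 25 was read in members of at least 26 nt whose bases 19 to 24 match n-TAagc16. Of the 86 such rat G15A reads, all had A at base 25, while the 1 such mouse G15A read had C. The same base was A in 7 of 7 mouse T16C reads and in 4 of 4 mouse T16A reads, on few reads. In the main form it was G in 32 of 38 mouse and 21 of 25 rat reads, and in the mouse A5G form G in 32 of 39. In reads of at least 30 nt, bases 24 to 30 were CACATGC in 9 of 9 rat G15A reads, in 4 of 4 mouse T16C reads and in 3 of 3 mouse T16A reads. They were CGCGCGC in 17 of 28 mouse main-form reads, CGCATGC in 8, CACATGC in 2 and CACGCGC in 1. In the 9 rat main-form reads they were CGCGCTT in 6, CGCATGC in 2 and CGCGCGC in 1. The main form therefore held reads with more than 1 continuation, so a start of 18 nt does not name 1 tRNA gene. RefSeq sequence for tRNA-Ala genes other than n-TAagc16 was not used here, so the forms were not assigned to genes.

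Ends at base 25 were mainly found in G15A, T16C and T16A. In the rat, 5463 of 17222 G15A reads ended there (31.7%, 31.03 to 32.4%), against 6 of 40226 main-form reads (0.0149%) and 0 of 2362 A5G reads. In the mouse, the counts were 31 of 152 for G15A (20.4%), 25 of 596 for T16C (4.19%) and 6 of 37 for T16A (16.2%), against 0 of 1683 for the main form and 0 of 122 for A5G. These counts leave out a listed 25-nt mouse read of the main form, ending in A, whose line has no count. If the month on that line is its count it had 9 reads, and such reads would be 0.527% of the main form (0.241 to 0.998%). Mouse T16A reads of 22 and 24 nt also lack a count. They had 8 and 7 reads if the month is the count, beside the 37 counted, which would lower the T16A share. Ends 1 base earlier, at base 24, were present in the main form, with 106 mouse and 5299 rat reads. The most abundant member of 25 nt, the G15A read printed above, had 29 mouse and 5193 rat reads. Of the 25-nt G15A reads, 30 of 31 mouse and 5317 of 5342 rat reads ended in A. Over all lengths and RNAs, 7.49% of listed mouse and 6.81% of listed rat reads ended in CG, as a 25-nt main-form read mostly would. Nearly all of those listed reads are other RNAs, so this figure does not describe the main form. Why the main form had so few 25-nt reads was not tested. In tRNA-Cys, reads of 25 nt ended in A in 151 of 152 mouse and 1878 of 1887 rat cases, and made up 2.56% of mouse and 25.8% of rat reads of that family. Reads under identifiers that are not listed were not examined.

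Ends inside the D loop also differed by form. In the mouse, reads of 18 and 19 nt were 470 of 1683 in the main form (27.9%, 25.8 to 30.1%) and 48 of 122 in A5G (39.3%), but 2 of 596 in T16C (0.336%) and 3 of 152 in G15A (1.97%). In the rat they were 3008 of 40226 in the main form (7.48%) and 178 of 2362 in A5G (7.54%), but 65 of 17222 in G15A (0.377%). Within each library the main form and A5G, which share the D-loop letters, thus held far more of the shortest reads than G15A, and in the mouse more than T16C; of the 13 rat T16C reads, 1 was this short. Reads this short are also the least specific: the first 18 nt of the main form occur in transcripts of 6 mouse GENCODE genes, and the 23-nt read in 2. The part of such other sources in the 18-nt counts was not tested.

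**Figure D3:**
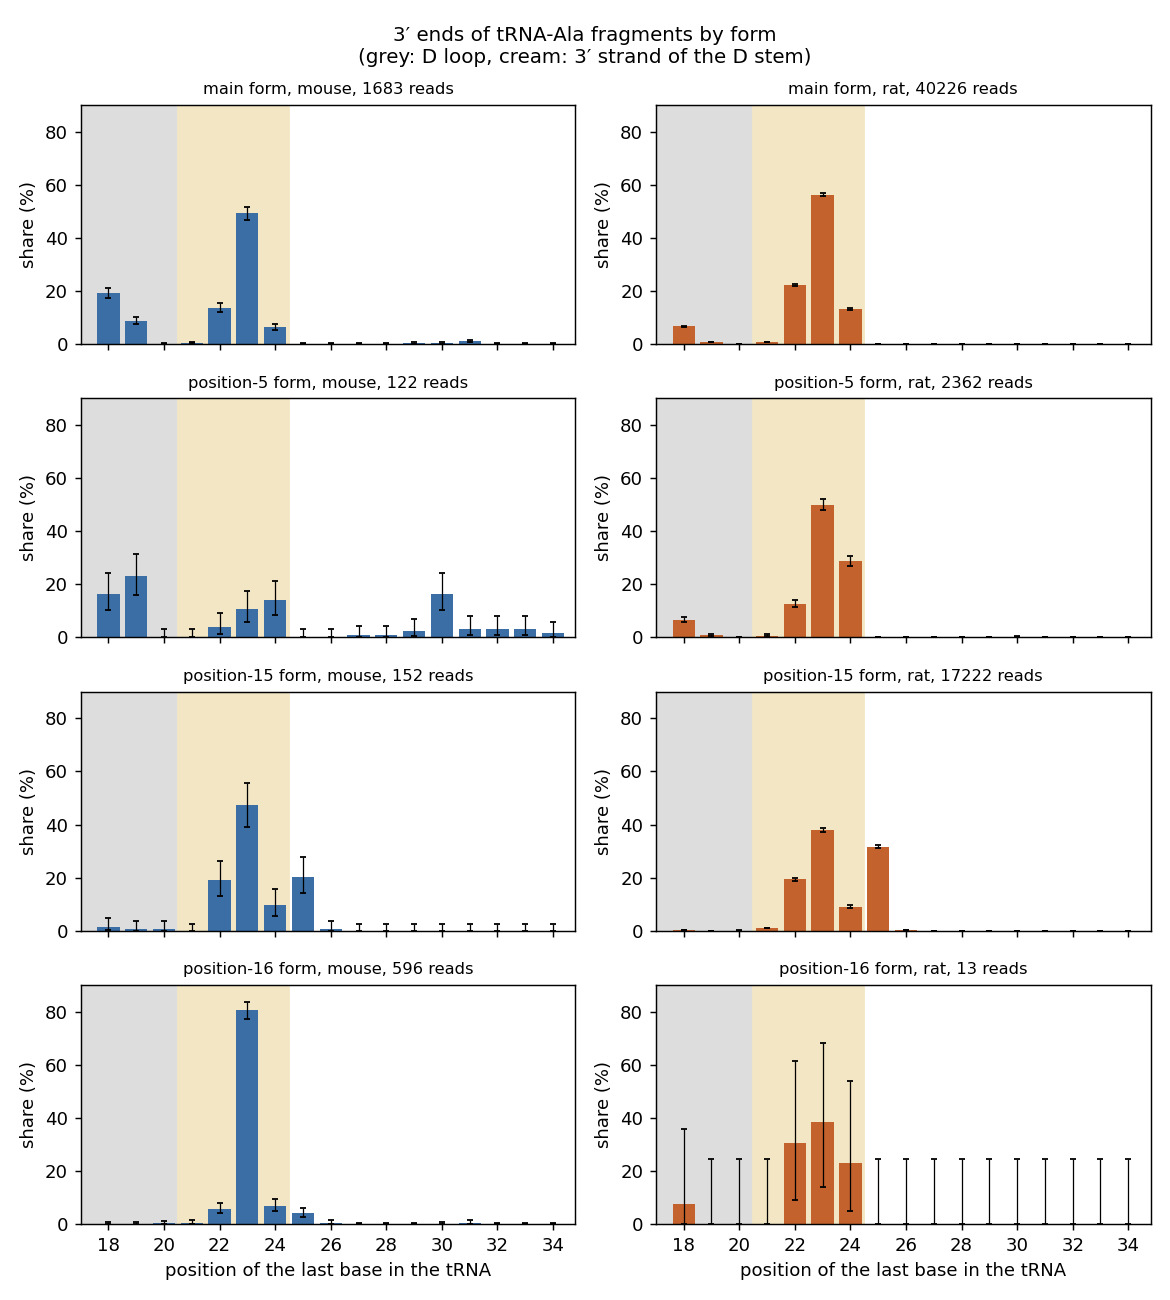
Share of reads (%) against the position of the last base in the tRNA for 4 forms (rows: main, A5G, G15A, T16C) in the mouse (left) and rat (right) libraries, with exact 95% counting intervals; grey marks the D loop and cream the 3′ strand of the D stem. Base 23 was the largest end in each panel but that of A5G in the mouse, ends at base 18 and 19 appear in the main and A5G rows, and the end at base 25 appears in the G15A row; the rat T16C panel rests on 13 reads.

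The few long members were mostly of 2 forms in the mouse. The A5G form gave 38 and the main form 36 of the 82 mouse reads of 28 to 36 nt. Of the A5G reads, 31 matched n-TAagc16 exactly throughout, the most abundant being the 30-nt read printed above with 19 mouse and 4 rat reads. A further 6 of the 38 carried the bases 24 to 28 of tRNA-Cys, from which this start differs by 1 base. Long reads were 31.1% of mouse A5G reads (23.1 to 40.2%) and 0.296% of rat ones. In the rat, the 56 long members were 25 of the main form, 22 of G15A and 7 of A5G, and 0 carried the tRNA-Cys bases. The most abundant was a G15A read of 29 nt with 9 reads.

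Single-base differences from the main form were concentrated at a few positions. In the rat, base 10 differed in 397 of 40623 reads (0.977%, 0.884 to 1.08%), with A in 215 and C in 169. In the mouse it differed in 20 of 1703 reads (1.17%, 0.719 to 1.81%), so the 2 intervals overlap. Base 10 opens the D stem, and its guanosine is methylated in many eukaryotic tRNAs. Base 2 differed in 0.546% of rat and 0.355% of mouse reads, and base 7 in 0.495% and 0.532%, not counting A at base 7, which is the tRNA-Cys base. Of the reads differing at base 7, 120 of 200 in the rat and 6 of 9 in the mouse had T. These make up the G7T form, which cannot be placed with tRNA-Ala alone. Its 18 nt occur in transcripts of 13 mouse GENCODE genes. In tRNA-Cys reads, base 10 differed in 20 of 5929 mouse reads (0.337%, 0.206 to 0.520%) and in 4 of 7326 rat reads (0.0546%, 0.0149 to 0.140%). Members were limited to 1 mismatch, so these shares leave out reads with a second difference.

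Base 19, the last but 1 of the D loop, lies outside the 18 matched bases and was judged in reads of at least 22 nt. It was deleted or replaced in 1954 of 57197 rat reads (3.42%, 3.27 to 3.57%) and in 17 of 2085 mouse reads (0.815%, 0.476 to 1.30%). Deletion was the commonest change in the rat, with 1184 reads (2.07%), followed by C with 456. The most abundant read lacking base 19 had 807 rat and 4 mouse reads, and that with C there had 290 and 2. Within the rat library the change stood at 4.17% of the main form, 2.40% of A5G and 1.89% of G15A. Rat tRNA-Cys showed it too, at 665 of 7169 reads (9.28%, 8.61 to 9.97%), against 71 of 5918 in the mouse (1.20%). The higher rat share was thus present in both families. Mouse tRNA-Cys reads were mostly of 28 to 36 nt (90.3%) and rat ones of 20 to 24 nt (63.1%). Base 19 was not compared at like lengths, so species and fragment length cannot be told apart in that family. No base modification was measured, and the part of modified bases in these differences was not tested.

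**Figure D4:**
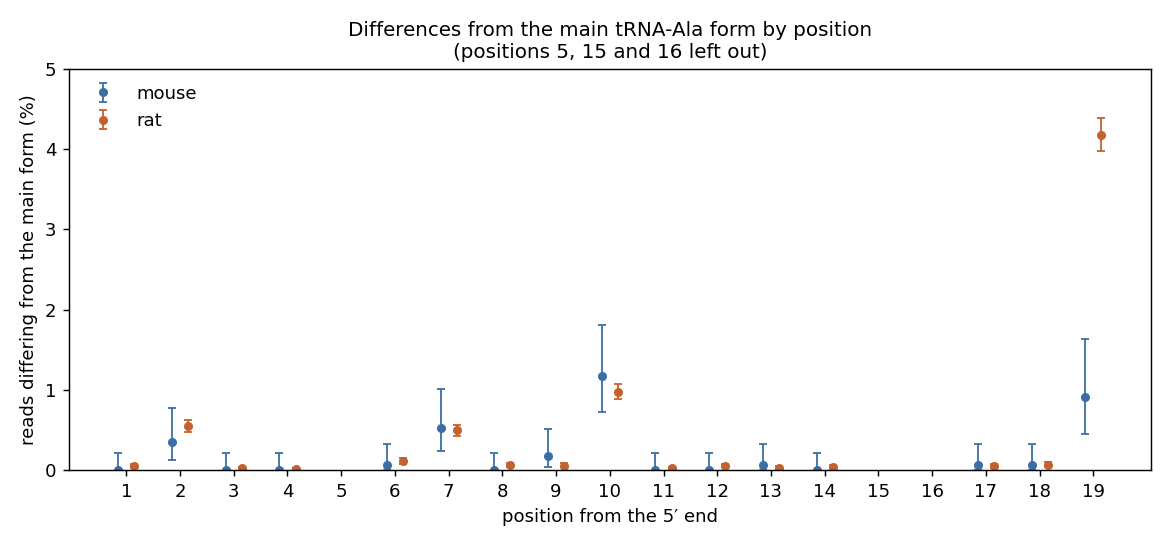
Reads differing from the main tRNA-Ala form (%) against the position from the 5′ end, with points for the mouse and rat libraries and exact 95% counting intervals; positions 5, 15 and 16, which define the forms, are left out, and position 19 includes deletions. Positions 10 and 19 stand highest, and the libraries are apart at 19 (mouse 0.914%, rat 4.17%, main form only).

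The deposited labels placed nearly all members with tRNA, at 2633 mouse reads (99.5%) and 60403 rat reads (98.8%). They were spread over 39 (mouse) and 92 (rat) tRNA entries of the Rfam database. In the rat, 347 reads in 44 sequences were labelled 7SK, a nuclear RNA that regulates transcription elongation, and 157 of these differed from the main form at base 10. A further 196 rat reads were labelled mRNA and 144 unknown. In the mouse, 7 reads were labelled mRNA and 6 miR-1957b. Labels went with base 19: 328 of 1184 rat reads lacking it stood under a label other than tRNA (27.7%, 25.2 to 30.3%), against 352 of 54999 reads with T there (0.64%). Counting by label alone would therefore leave out more of the reads that lack this base.

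Just outside the limit of 1 mismatch, reads with 2 mismatches numbered 27 (mouse) and 382 (rat), and reads equally close to tRNA-Cys 34 and 197. Within the limit, 68.2% of mouse and 69.7% of rat members matched an end exactly. Further starts that share bases 1 to 4 and 8 to 14 with the ends but lie outside the limit were also listed. The leading 2 of each library, at least 5 mismatches away, had 171 mouse reads, equal to 6.46% of the mouse members, and 185 rat reads, or 0.303%. Their deposited label was tRNA for all 171 mouse reads and for 175 of the 185 rat reads. They were not placed with any 1 tRNA here. Of the 3 mouse reads that reach base 36, 0 had AGC at bases 33 to 35 or 34 to 36. That search covered the letters AGC only, on few reads, so it cannot place these starts within or outside tRNA-Ala. Starts at base 2 had 1 mouse and 33 rat reads, starts at base 3 had 5 and 0, and starts with 1 added base had 3 and 23. Starts further inside the tRNA were not counted. A main form lacking base 7 had 455 rat reads, of which 447 were labelled tRNA, and 2 mouse reads. Of it and the main form together, it was 1.12% of rat and 0.119% of mouse reads. A minor member form, G7T, had 6 mouse and 120 rat reads. Its 18 nt are also found in Bc1, a short noncoding RNA known from brain, and 3 of 3 rat reads of at least 26 nt matched Bc1 throughout, so this form cannot be placed with tRNA-Ala alone.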

How the data were processed

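Small RNAs of 18 to 45 nt from cauda epididymal sperm were sequenced on an Illumina GAIIx after Trizol extraction, per the labels' protocols, with 1 library per species. The deposited values are read counts per distinct sequence. Each has 1 database match, with up to 2 mismatches allowed, per the file headers. The submitters' processing notes name Bowtie 0.12.7, mm9 and rn5, without their roles. Not given in the sources used here are adapter trimming and the choice among matches. Depth was 691381 listed mouse and 2102735 listed rat reads, so 3 counts equal 0.000434% and 0.000143%. In the mouse, 2535 sequences have no count and were left out.

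Sequences on the minus strand were turned back by reverse complement. A read was a member if its first 18 nt came within 1 mismatch of either of 2 tRNA-Ala ends and closer to these than to 2 tRNA-Cys ends, found among the reads by the anticodon GCA in reads of at least 35 nt. Over both libraries, 20 such reads named the G7A end and 1 the end with G7A and T16G. RefSeq windows and GENCODE M21 transcripts (GRCm38) were the reference, and marker genes were chosen after the tables had been seen. The members, forms and comparison families were chosen with earlier results of these data known. Named sequences are the 5 most abundant members of each library, the most abundant member of each form holding at least 1% of a library and the most abundant of at least 28 nt. Sequences with base 19 deleted or C, the G7T form, the form lacking base 7, the further starts and the tRNA-Cys read were added after their values were seen. Python 3.11.15 and scipy 1.17.1 were used, and the assignment was tested on simulated reads. Alternatives covered the match, the denominator, the counting unit and the labels.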

Additional observations from a re-analysis of the deposited data

Results flagged for a closer look

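In the mouse table, 5 sequences that meet the definition of a tRNA-Ala fragment stand on lines without a count and were used in no comparison. If the month number in their identifier field is the count, they hold 40 reads. They include a 30-nt main-form read and a 25-nt read of the main form that ends in A, each with 9 reads on that reading. T16A reads of 22 and 24 nt are also among them, with 8 and 7 reads.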

How the results depend on the processing

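With 1 library per species there is no replicate spread, so a value counted as moved when it left the exact 95% interval of the value reported. No paired analysis was possible because each species has 1 library. Of the alternatives, 51 values stayed within that interval and 48 left it; the rat share of listed reads stayed above that of the mouse in every setting. Mouse is given first.

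The share of listed reads was 0.261% and 2.02% with exact matches, 0.429% and 3.20% over sequences of at least 10 reads, 0.266% and 1.92% without the most abundant sequence and 0.156% and 0.330% of distinct sequences. It was 0.711% and 17.8% of reads labelled tRNA, and 11.3 and 235.5 per 100 mature miRNA reads. In the rat it was 2.87% for reads labelled tRNA and, chosen after seeing the data, 2.95% with 2 mismatches or 1 deleted base allowed. The share at 20 to 24 nt was 67.0% and 92.4% with exact matches, 62.1% and 78.0% without the most abundant sequence, 54.1% and 78.6% over distinct sequences, and, for mouse sequences of at least 10 reads, 75.4%. Ends in the D loop were 28.8% and 7.53% with exact matches, 29.9% and 8.40% without the most abundant sequence, and 8.61% of distinct rat sequences. The main form held 93.2% and 94.4% of exact matches by construction, since G15A and the forms at position 16 are then left out. It held 66.2% and 66.4% over sequences of at least 10 reads, 47.5% and 47.8% without the most abundant sequence, 28.1% and 21.4% of distinct sequences and, chosen after seeing the data, 57.7% and 64.4% without reads of 18 and 19 nt. In the rat it held 66.4% of reads labelled tRNA and 64.8% with the looser match. The tRNA label covered 99.8% and 99.7% of exact matches, 94.1% and 84.3% of distinct sequences, 99.1% of mouse members with ties kept and 98.2% of rat members without the most abundant sequence. With the leading 2 further starts also counted, chosen after seeing the data, the mouse share was 0.407%, its share at 20 to 24 nt 70.6% and its main form 59.7%, and rat ends in the D loop were 5.74%. Matching 16 nt or shifted starts moved nothing past the interval.

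A comparison with tRNA-Leu was planned and not made, since no whole tRNA-Leu end was at hand in the reference used here. Values of mouse T16A and rat T16C rest on 37 and 13 reads, and reads under unlisted identifiers enter no share.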
